A study of Mus musculus with 9 samples.

Results

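Potassium channel genes were followed across mouse striatum after 2 regimens of MPTP, a toxin of dopamine neurons, whose axons end in the striatum. The set took every gene whose symbol starts with Kcn and that had a probe set with exactly 1 gene symbol in the platform annotation, apart from Kcnj13, a choroid plexus gene. For a gene with several probe sets, the one with the highest mean over the 9 arrays was used. This gave 91 of the 19935 genes measured that way. By role they were 35 voltage-gated subunits, 14 inward rectifiers, 14 two-pore-domain channels, 8 calcium- or sodium-activated channels, 17 auxiliary subunits or regulators and 3 RNAs from the strand opposite a channel gene. After the filter on low probe sets 83 genes were tested. The 8 below it were Kcnj1, Kcnk5, Kcnk18, Kcnu1, Kcne1, Kcne3, Kcne4 and Kcnrg, so counts below speak of the 83 tested genes.

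Striatal total RNA was measured on 3 arrays per group. In the acute group MPTP was injected at 20 mg/kg 4 times with 2 h between injections (80 mg/kg altogether), and the striatum was sampled at 1 week. In the chronic group MPTP was given at 4 mg/kg daily over 20 days (also 80 mg/kg altogether), and tissue was taken after 8 weeks. Controls had 4 saline injections with the same spacing and were likewise sampled at 1 week. The chronic group thus differs from the others both in regimen and in time. The strain, sex and age of the mice are not given in the sources used here, and the labels do not tie arrays to separate animals, and p-values here reflect only how far these arrays differ, which may be technical.

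Potassium channels carry the outward current that sets the resting potential, ends action potentials and spaces them. Voltage-gated channels open on depolarisation, inward rectifiers pass current near rest, two-pore-domain channels leak, and activated channels open with intracellular calcium or sodium. Striatal projection neurons are known for a very negative resting potential held by strong inward rectifiers and for a slowly inactivating and a fast transient voltage-gated current that delay firing, and dopamine receptors act on several of these currents through G proteins. Cortex and thalamus send dense axons to the striatum but their cell bodies lie outside it.

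The promoters of 4 genes are shown because these genes had some of the largest differences between the chronic group and another group, 2 lower and 2 higher. The sequences are from RefSeq on build GRCm38.p6, 5′ to 3′ on the strand of the gene, 300 bases around the annotated start. Capitals mark the GC box GGGCGG or its complement CCGCCC.
Kcnc4, chr3:107458849-107459148, minus strand: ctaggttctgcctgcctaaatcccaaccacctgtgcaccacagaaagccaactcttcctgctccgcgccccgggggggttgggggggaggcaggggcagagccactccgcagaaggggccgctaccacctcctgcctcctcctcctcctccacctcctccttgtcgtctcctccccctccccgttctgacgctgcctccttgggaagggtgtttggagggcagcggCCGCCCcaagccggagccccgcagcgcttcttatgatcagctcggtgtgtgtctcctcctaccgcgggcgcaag
Kcnk4, chr19:6934466-6934765, minus strand: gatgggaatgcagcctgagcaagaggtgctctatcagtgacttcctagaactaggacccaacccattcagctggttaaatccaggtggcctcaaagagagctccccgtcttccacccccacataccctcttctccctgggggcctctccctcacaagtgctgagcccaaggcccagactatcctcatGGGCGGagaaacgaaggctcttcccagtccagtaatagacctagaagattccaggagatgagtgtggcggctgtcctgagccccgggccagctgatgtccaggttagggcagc
Kcng3, chr17:83631846-83632145, minus strand: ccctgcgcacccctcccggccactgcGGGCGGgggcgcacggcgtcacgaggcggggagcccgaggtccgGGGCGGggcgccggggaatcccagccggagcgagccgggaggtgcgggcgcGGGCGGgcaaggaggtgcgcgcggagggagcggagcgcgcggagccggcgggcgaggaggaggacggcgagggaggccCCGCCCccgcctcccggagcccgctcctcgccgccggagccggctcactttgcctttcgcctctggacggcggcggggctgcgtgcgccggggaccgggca
Kcnip2, chr19:45816014-45816313, minus strand: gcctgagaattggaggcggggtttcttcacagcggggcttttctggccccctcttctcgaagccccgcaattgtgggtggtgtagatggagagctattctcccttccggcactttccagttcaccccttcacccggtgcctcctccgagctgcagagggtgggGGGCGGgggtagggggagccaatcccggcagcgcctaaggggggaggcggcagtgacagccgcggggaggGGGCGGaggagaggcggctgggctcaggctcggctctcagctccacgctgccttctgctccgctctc

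The RefSeq table held 94 promoters of 69 of the 91 genes. A GC box, searched on both strands, was present in 45 of these 94 promoters (47.9%) and in 35.7% of all 32851 promoters in the table. The Kcng3 promoter had 4, that of Kcnip2 had 2, and those of Kcnc4 and Kcnk4 had 1 each. The letters TATAAA occurred on either strand in 4 of the 94 (4.3%, in Kcnab1, Kcnj9, Kcnj15 and Kcnj16), against 13.6% of all promoters. TGACGTCA, the full cyclic AMP response element, was in 0 of the 94 and in 1.8% of all promoters. Median GC content was 58.2% in the channel promoters and 52.7% in all promoters. None of the 3 motifs contains another. Kcnc4 and Kcnk4 had a lower mean in the chronic than in the control group, and Kcng3 and Kcnip2 a higher one, none with an adjusted p under 0.05. All 4 genes held a GC box in this window, so its presence did not separate the 2 directions in these 4.

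The typical channel gene differed more between arrays than the typical gene. Over the 9 arrays the median SD was 0.24 (log2) among the 83 genes, against 0.16 over all 16335 probe sets tested, and within groups it was 0.21 against 0.16. Part of this spread followed markers of tissue next to the striatum. Cortex markers (13 of 14 listed genes measured, mean of centred log2 values) stood at 0.69 and 0.93 on acute arrays 1 and 2 and at 1.06 on control array 1, against -0.69 to -0.32 on the other 6 arrays, which include the 3 chronic ones. Markers of thalamus, septum and hypothalamus (14 of 14 measured) stood at 0.74 on acute array 3 and 1.47 on control array 3, against -0.79 to 0.01 elsewhere. Choroid plexus markers (8 of 9 measured) were high on the same 2 arrays, at 1.70 and 0.98.

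The tissue label was checked against projection neuron markers. Of the 13 measured, 12 were at 9.87 or more on every array, such as the dopamine receptor Drd2 (10.88 to 12.01), and the neuropeptide precursor Pdyn was lower, at 7.90 to 9.35. Their list mean (13 of 15 measured) was 0.00 to 0.08 on acute arrays, 0.20 to 0.32 on chronic arrays and -0.41, 0.10 and -0.51 on control arrays 1, 2 and 3. Tbr1, a transcription factor of cortical projection neurons, was measured at 9.12, 9.65 and 6.47 on acute arrays, 7.27, 7.04 and 5.69 on chronic arrays, and 9.89, 7.06 and 7.08 on control arrays. Slc17a7 was likewise highest on acute arrays 1 and 2 and control array 1 (11.75, 12.28 and 12.27), but not every cortex marker was. Lamp5 was lowest on control array 1 (9.38) and highest on chronic array 3 (10.24), and Cux2 and Rorb were highest on control array 3 (8.14 and 9.31). In tissue RNA, fewer cells of a type and less RNA per cell cannot be told apart.

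Within groups, 11 of the 83 genes had a positive slope on the cortex mean with an unadjusted p under 0.05 (13.3%, where 2.45% of all probe sets did) and 2 a negative one (2.41%, where 1.81% did). On the thalamus mean 17 had a positive one (20.5%, where 5.71% did) and 7 a negative one (8.43%, where 2.68% did). No channel gene's slope passed the adjusted threshold of 0.05, which 0.135% of all probe sets passed for positive cortex slopes and 0% for negative cortex slopes and for thalamus slopes of either sign. The steepest cortex slope was that of Kcnh7, of the ether-a-go-go-related group (0.80 ± 0.18 log2 units per unit of the cortex mean, SE). Among channels opened by G protein beta-gamma subunits Kcnj3 had 0.72 ± 0.14, Kcnj6 0.67 ± 0.11 and Kcnj9 0.47 ± 0.12. The sodium-activated Kcnt2 had 0.67 ± 0.25, and the mechanically gated leak channel Kcnk4 0.58 ± 0.13. Kcnh7 shows the pattern in its values: 9.19, 9.24 and 8.34 on acute arrays, 8.32, 8.21 and 8.57 on chronic arrays, and 9.63, 8.25 and 8.52 on control arrays. Its 3 high arrays are the 3 that were high in cortex markers, and the acute and control groups each held both high and low arrays. With the replicate number as a block as well, 3 channel genes passed, where 0.496% of all probe sets did: Kcnh7 (slope 0.87 ± 0.08, adjusted p = 0.00773), Kcnj6 (0.69 ± 0.09, adjusted p = 0.0302) and Kcnf1, a silent voltage-gated subunit (0.58 ± 0.08, adjusted p = 0.0327). That fit left fewer residual degrees of freedom than the 4 left by the block alone or by the marker means alone. The block was also taken from these same values, so these errors and p-values are less firm than they look.

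Slopes on the thalamus mean belonged partly to the same genes and partly to others. Kcnj6 (0.37 ± 0.10), Kcnj3 (0.33 ± 0.12) and Kcnk4 (0.345 ± 0.12) were positive on this mean too, each with an unadjusted p under 0.05 in limma. Kcnh7 (0.08 ± 0.16) was near level on it. Kcnip1, a calcium-binding partner of the transient current channels, was at 8.06, 8.81 and 9.39 on acute arrays, 8.54, 9.54 and 8.56 on chronic arrays, and 8.85, 9.11 and 9.84 on control arrays (slope 0.72 ± 0.24). Kcnip1 was highest on control array 3, but next on chronic array 2, where the thalamus mean was -0.03. Genes of that list went both ways on chronic array 2. Zic1 (10.37) and Zic2 (9.44) were above every array other than acute array 3 and control array 3. Prkcd (9.39) was above every array other than control array 3, while Slc17a6 (6.42) and Lhx9 (5.88) were at their lowest. Kcnip4, of the same family, was at 9.61, 9.86 and 10.50 on acute arrays, 9.74, 9.90 and 10.30 on chronic arrays, and 9.88, 10.03 and 10.67 on control arrays (0.45 ± 0.11). Array 3 was the highest of its group in all 3 groups for Kcnip4. Kcnd3, a pore subunit of the transient current, had a slope of 0.58 ± 0.15, Kcnmb1, a BK channel beta subunit best known from smooth muscle, 0.77 ± 0.22, and Kcnj16, an inward rectifier subunit that pairs with the astrocyte channel, 0.42 ± 0.12. Slopes ran the other way for Kcnab1, a cytoplasmic beta subunit (-0.43 ± 0.10), Kcnk2, a leak channel gated by stretch and lipids (-0.45 ± 0.14), and Kcnj4, a strong inward rectifier of striatal projection neurons (-0.47 ± 0.17). Kcnj4 was at 9.94, 10.14 and 9.55 on acute arrays, 9.95, 10.12 and 9.87 on chronic arrays, and 9.55, 10.09 and 9.05 on control arrays, lowest in each group on array 3.

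Kcnc2, which with Kcnc1 makes the fast delayed rectifier of fast-spiking interneurons, had the largest SD of the 83 (0.69 over 9 arrays). It was at 8.61, 8.54 and 9.51 on acute arrays, 8.33, 7.55 and 9.23 on chronic arrays, and 8.87, 8.83 and 9.88 on control arrays, with array 3 the highest of each group. Kcnc1 was at 9.09, 9.22 and 9.23 on acute arrays, 9.18, 9.46 and 9.49 on chronic arrays, and 9.03, 9.33 and 9.53 on control arrays, so this partner did not share the low value of Kcnc2 on chronic array 2.

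**Figure D1:**
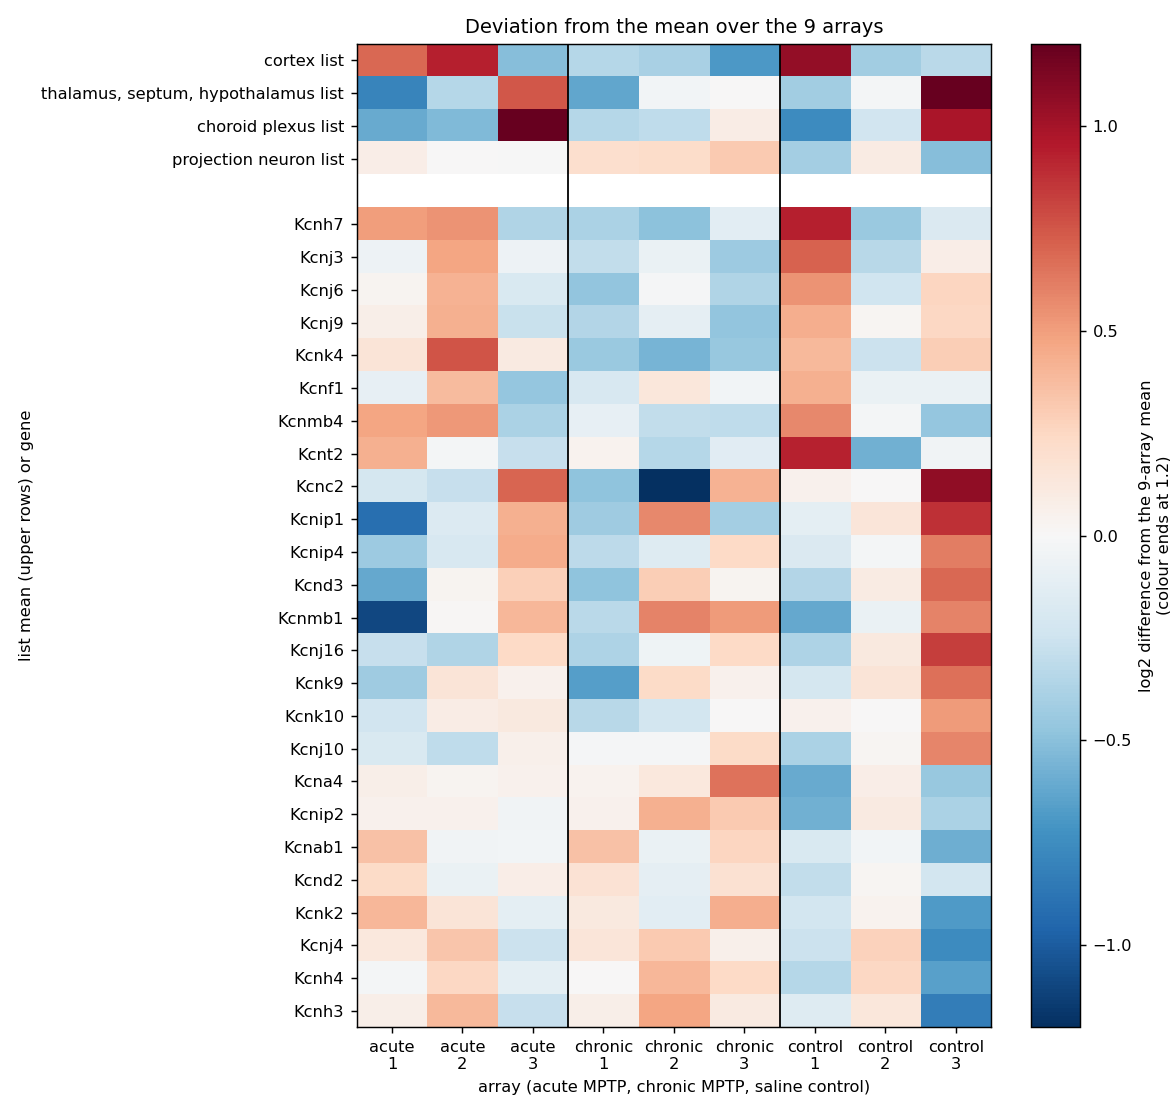
Colour shows the log2 difference of each list mean (upper 4 rows) or gene (lower rows) from its mean over the 9 arrays, with acute, chronic and saline control arrays from left to right. Kcnh7 to Kcnt2 are all above their means on control array 1 and mostly on acute array 2, less evenly on acute array 1. Kcnj6, Kcnj9, Kcnk4 and, slightly, Kcnj3 are also above their means on control array 3, and Kcnc2 to Kcnj10 are high mostly on array 3. The rows were picked after the values were seen, and colour ends at 1.2.

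Chronic MPTP against saline control. No channel gene passed the adjusted threshold of 0.05 in limma, and 0% of all probe sets did (smallest adjusted p 0.876). The channel genes split evenly, with 41 higher and 42 lower, where 7632 and 8702 of all 16335 probe sets were. The median log2 fold change of the channel genes was -0.01, which was also the median over all probe sets. The median size of the difference, in either direction, was 0.21, against 0.09 over all probe sets. At an unadjusted p under 0.05, 8 channel genes were higher (9.64%, where 2.85% of all probe sets were) and 5 lower (6.02%, where 2.66% were). The groups of 3 arrays did not overlap for 10 of the 83 genes (12%), against 6.55% of all probe sets. With the replicate number as a block, 25 genes had an unadjusted p under 0.05 (13% of all probe sets did), including all 13 of these, and the smallest adjusted p among channel genes was 0.255.

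Among voltage-gated subunits, 21 of 35 were higher and 14 lower, 4 and 2 of them with an unadjusted p under 0.05. Kcnc4, a fast-inactivating channel of the same family as Kcnc1 and Kcnc2, was at 7.68, 7.80 and 8.07 on chronic arrays and at 8.55, 8.22 and 8.76 on control arrays. Every chronic array was below every control array, and the difference was -0.67 ± 0.16 (SE; 1.59-fold lower; unadjusted p = 0.00189, adjusted p = 0.876). Kcng3, a silent subunit that changes the gating of delayed rectifier channels when built into them, was at 9.10, 9.18 and 9.57 on chronic arrays and at 8.61, 8.93 and 8.56 on control arrays. The groups did not overlap, with 0.58 ± 0.14 between them (unadjusted p = 0.00245, adjusted p = 0.876).

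The channels of the Kcna group, which set the firing threshold and the slowly inactivating and axonal currents, went both ways. Kcna4, a fast-inactivating member found in axons, was at 9.03, 9.11 and 9.64 on chronic arrays and 8.38, 9.06 and 8.53 on control arrays (0.60 ± 0.20, adjusted p = 0.876). Control array 2 lay between the chronic arrays, so these groups overlapped. Kcna1, an axonal delayed rectifier, was at 11.14, 11.31 and 11.28 on chronic arrays and 10.92, 11.05 and 10.80 on control arrays (0.32 ± 0.13, adjusted p = 0.899). Kcna6, another delayed rectifier of this group, was at 8.55, 8.64 and 8.65 on chronic arrays and 8.97, 8.76 and 9.09 on control arrays (-0.33 ± 0.10, adjusted p = 0.876). Kcna1 was higher and Kcna6 lower without overlap. Kcna2, the main axonal partner of Kcna1, differed by 0.24 ± 0.16 and overlapped. Kcns1, a silent subunit, was at 9.0, 8.79 and 8.85 on chronic arrays and 8.68, 8.57 and 8.26 on control arrays, again without overlap (0.38 ± 0.15, adjusted p = 0.898). Of the 10 silent subunits tested, 7 were higher and 3 lower. Kcnc2 differed by -0.82 ± 0.45, the largest size among the 83, and overlapped. Between same-numbered arrays it was lower in each pair (-0.54, -1.27 and -0.65), and with the replicate block its unadjusted p was 0.000659 in limma (0.101 without), its adjusted p 0.255. The channels of the M-current, Kcnq3 (0.32 ± 0.16) and Kcnq5 (0.20 ± 0.12), and the transient current channel Kcnd2 (0.25 ± 0.13) also stayed above an unadjusted p of 0.05. Kcnh8 did not overlap (6.25, 6.28 and 6.24 on chronic arrays and 6.31, 6.31 and 6.78 on control arrays), but its unadjusted p was 0.166 and its second probe set differed in sign (0.08 against -0.21).

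Of the 13 inward rectifiers tested, 7 were higher and 6 lower. The 4 subunits gated by G proteins, through which dopamine and other receptors slow firing, were all lower, from -0.55 to -0.23, and 1 had an unadjusted p under 0.05. This was Kcnj9, at 7.60, 7.83 and 7.47 on chronic arrays and 8.38, 7.97 and 8.19 on control arrays without overlap (-0.55 ± 0.18, adjusted p = 0.876). Kcnj6 differed by -0.47 ± 0.22, Kcnj3 by -0.42 ± 0.25 and Kcnj5 by -0.23 ± 0.22. All 3 overlapped, and Kcnj6 and Kcnj3 took the other sign with the tissue covariates described below. The 4 strong rectifiers that hold the resting potential, Kcnj2, Kcnj4, Kcnj12 and Kcnj14, were all higher, from 0.03 to 0.42, but their 1 gene with an unadjusted p under 0.05, Kcnj14, can only be described. It was at 6.02, 6.22 and 6.45 on chronic arrays and 5.73, 5.91 and 5.78 on control arrays, a difference of 0.42 ± 0.12. Its control mean of 5.81 lies below the filter at 5.89, which it passed through the treated arrays. It was the 1 tested channel gene with a group mean below the filter. The counts against control include it, both those at an unadjusted p under 0.05 and those of non-overlapping groups. Kcnj2 (0.41 ± 0.20) and Kcnj4 (0.42 ± 0.24), the strong rectifiers described in projection neurons, overlapped. These families were grouped after the values were seen. Of the ATP-sensitive pore subunits, Kcnj8, a pericyte and smooth muscle gene, was at 7.43, 7.24 and 7.51 on chronic arrays and 6.99, 7.23 and 7.21 on control arrays (0.25 ± 0.10, adjusted p = 0.899), and Kcnj11, the neuronal one, differed by 0.04 ± 0.09. The astrocyte rectifier Kcnj10 differed by -0.01 ± 0.22.

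Of the 12 two-pore-domain channels tested, 4 were higher and 8 lower. Kcnk4 was at 7.54, 7.42 and 7.53 on chronic arrays and 8.38, 7.73 and 8.28 on control arrays (-0.63 ± 0.20, 1.55-fold lower; adjusted p = 0.876). The chronic arrays lay within a narrow span, below every control array. Its relative Kcnk10 was at 7.30, 7.42 and 7.64 on chronic arrays and 7.69, 7.64 and 8.14 on control arrays, touching at 7.64 (-0.37 ± 0.16, adjusted p = 0.899). The third stretch-gated channel, Kcnk2, had the opposite sign (0.43 ± 0.21) and overlapped. The acid-sensitive leak channels Kcnk3, Kcnk9 and Kcnk15 differed by -0.12 ± 0.11, -0.33 ± 0.28 and -0.09 ± 0.09, and each overlapped.

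None of the 7 calcium- or sodium-activated channels tested had an unadjusted p under 0.05. The BK pore gene Kcnma1, which shapes spike repolarisation, differed by -0.04 ± 0.12, and the small-conductance channel Kcnn3, which sets the pause after spikes, by 0.26 ± 0.27. Of the 13 auxiliary genes tested, 2 were higher at that threshold, where 2.85% of all probe sets were. Kcnip2, the partner that brings the transient current channel to the surface in projection neurons, was at 10.76, 11.14 and 11.02 on chronic arrays and 10.13, 10.82 and 10.33 on control arrays (0.54 ± 0.17, adjusted p = 0.876). Kcnab1 was at 11.84, 11.40 and 11.74 on chronic arrays and 11.30, 11.45 and 10.90 on control arrays (0.44 ± 0.18, adjusted p = 0.899). In both genes control array 2 lay within the chronic range. Between same-numbered arrays Kcnip2 was higher in each pair (0.62, 0.32 and 0.69). Kcnab1 was not (0.54, -0.05 and 0.84), so its difference rested on control arrays 1 and 3. The 3 opposite-strand RNAs differed by -0.23 to -0.04.

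**Figure D2:**
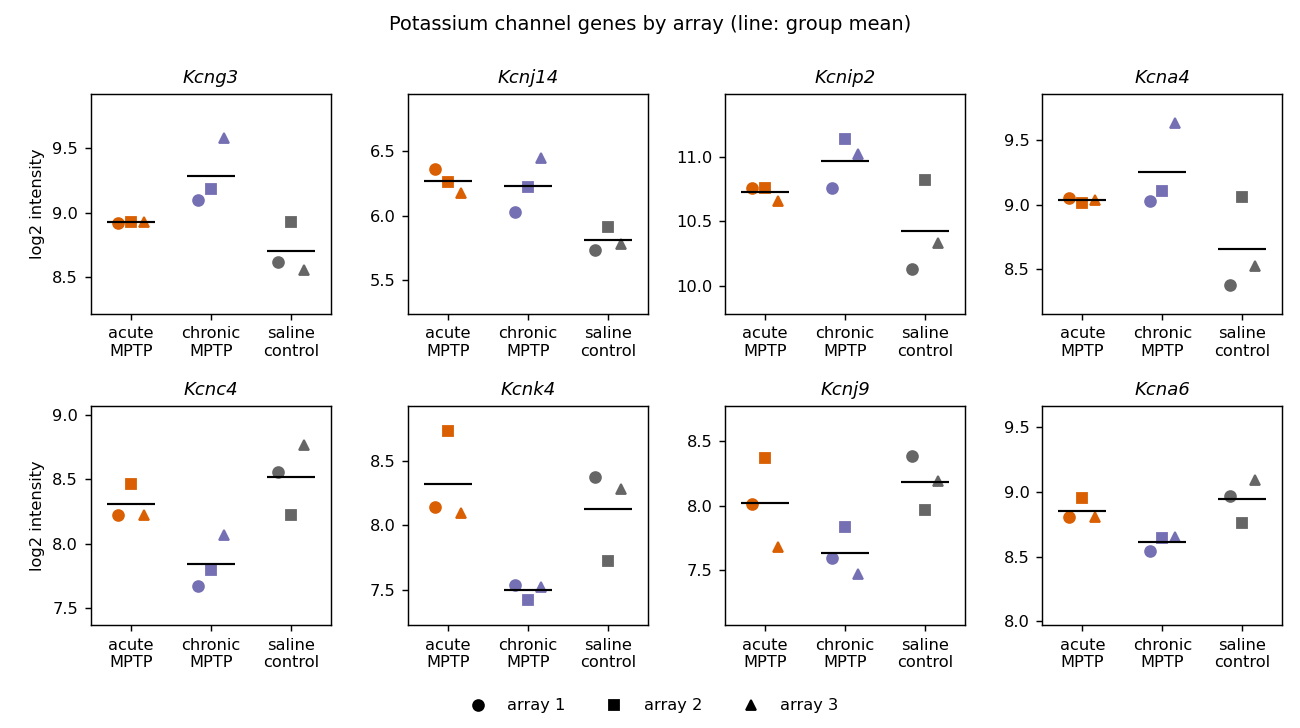
Each point is the log2 intensity of 1 array and the line is the group mean, for acute MPTP, chronic MPTP and saline control from left to right, with every panel spanning the same log2 height. Chronic arrays lie above all control arrays for Kcng3 and Kcnj14 and below them for Kcnc4, Kcnk4, Kcnj9 and Kcna6, while Kcnip2 and Kcna4 overlap at control array 2.

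Tissue markers differed between these groups as well, and with their means in the fit some gene differences shrank while others barely changed. Between chronic and control arrays, 11 of 13 cortex markers were lower (3 with an unadjusted p under 0.05, list median -0.51), 13 of 14 thalamus, septum and hypothalamus markers were lower (0 with an unadjusted p under 0.05, median -0.56), and 13 of 13 projection neuron markers were higher (10 with an unadjusted p under 0.05, median 0.52). None of these markers passed the adjusted threshold. At an unadjusted p under 0.05, 2.85% of all probe sets were higher and 2.66% lower. With the cortex and thalamus means as covariates, 1 of the 83 genes had an unadjusted p under 0.05, where 1.29% of all probe sets did. That gene was Kcns1 (0.31 in place of 0.38, unadjusted p = 0.0457 with limma). Under these covariates Kcnk4 was -0.11, Kcna6 -0.09, Kcnj9 -0.18, Kcnc4 -0.29 and Kcnk10 -0.10. Kcng3 was 0.37, Kcnj14 0.35 and Kcna1 0.32, while Kcnab1 was at 0.04, Kcnj8 at 0.13, Kcna4 at 0.22 and Kcnip2 at 0.27. Standard errors changed too. That of Kcna1 rose from 0.13 to 0.19 and that of Kcng3 from 0.14 to 0.20, while that of Kcnab1 fell from 0.18 to 0.15. The lower count under the covariates thus does not reflect smaller differences alone. Kcnj6 (0.12) and Kcnj3 (0.18) took the other sign. The covariates left 4 residual degrees of freedom, and all chronic arrays were low in cortex markers, so group and cortex level are partly confounded.

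**Figure D3:**
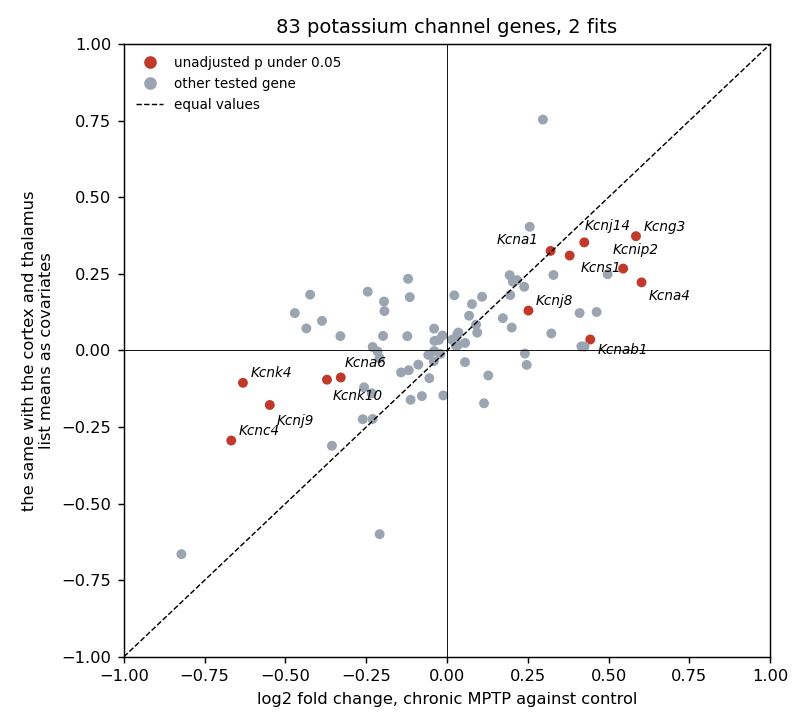
Each point is 1 of the 83 tested genes, with its log2 fold change of chronic MPTP against control on the horizontal axis and the same value with the cortex and thalamus list means as covariates on the vertical axis. The 5 named lower genes sit vertically between -0.29 (Kcnc4) and -0.09 (Kcna6), and the 8 named higher genes between 0.04 (Kcnab1) and 0.37 (Kcng3).

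The 3 arrays high in cortex markers were also left out (acute 1, acute 2 and control 1). Of the 13 genes with an unadjusted p under 0.05 in chronic against control, 7 were then still under it (Kcna1, Kcnc4, Kcng3, Kcnj9, Kcnj14, Kcnk4 and Kcns1), where 3.27% of all probe sets were. No other channel gene was, and Kcnj14 remains a description only. Fits with choroid plexus means and with the block are in the closing section.

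Acute MPTP against saline control. No channel gene and 0% of all probe sets passed the adjusted threshold in limma. The smallest adjusted p was 0.23 over all probe sets and 1 among the channel genes. Of the 83 genes 47 were higher and 36 lower, where 8418 and 7917 of all 16335 probe sets were. The median of the 83 genes was 0.04, against 0.00 over all probe sets. At an unadjusted p under 0.05, 3 were higher (0.416% of all probe sets were) and 0 lower (0.435% were). Groups did not overlap for 6 genes (7.23%), against 3.56% of all probe sets. With the replicate block 9 genes had an unadjusted p under 0.05, where 4.21% of all probe sets did, and the smallest adjusted p was 0.98.

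Kcnj14, the strong inward rectifier, was at 6.36, 6.26 and 6.17 on acute arrays and 5.73, 5.91 and 5.78 on control arrays. All acute arrays lay above the controls (0.46 ± 0.12), which is a description only, since the control mean lies below the filter. The same controls served in the chronic comparison above. Kcnn1, a small-conductance calcium-activated channel, was at 7.42, 7.48 and 7.27 on acute arrays and 7.22, 7.17 and 7.08 on control arrays (0.23 ± 0.09). Kcns3, a silent subunit, was at 7.03, 7.02 and 6.78 on acute arrays and 6.76, 6.72 and 6.63 on control arrays (0.25 ± 0.11). In both genes the lowest acute array lay just above the highest control array. The other non-overlapping genes were Kcnj11 (0.18 ± 0.09), the voltage-gated Kcna10 (0.16 ± 0.09) and the weak leak channel Kcnk1 (0.26 ± 0.15). Kcnc4 was at 8.22, 8.46 and 8.22 on acute arrays, -0.21 ± 0.16 from control, and Kcng3 at 8.92, 8.93 and 8.93, 0.23 ± 0.14 from control.

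By class, 20 of 35 voltage-gated genes, 6 of 13 inward rectifiers, 9 of 12 two-pore-domain channels, 3 of 7 activated channels and 8 of 13 auxiliary genes were higher in the acute group. The 4 G protein-gated rectifiers differed by -0.27 to -0.03, and the 3 members of the Kcnc group, Kcnc1, Kcnc2 and Kcnc4, by -0.31 to -0.12. Kcnip1 had the largest size, -0.52 ± 0.40. Markers moved beside these values: 11 of 13 cortex markers and 13 of 13 projection neuron markers were higher (medians 0.29 and 0.29), and 12 of 14 thalamus, septum and hypothalamus markers were lower (median -0.43), with 0, 1 and 0 of them at an unadjusted p under 0.05. With the cortex and thalamus covariates Kcnj14 differed by 0.45, again a description only. It alone of the 83 had an unadjusted p under 0.05, where 1.11% of all probe sets did. Without the 3 arrays high in cortex markers, 1 acute array was left, which the fit assumes to vary like the other groups, and 1 gene had one, where 0.569% of all probe sets did. It rests on that single array. The gene was Kcne2, an auxiliary subunit abundant in choroid plexus, at 6.59 on acute array 3, which was high in choroid plexus markers, and at 5.84 and 6.08 on control arrays 2 and 3.

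Chronic against acute MPTP. This comparison uses no control array but joins regimen and time. Its chronic and acute arrays are those of the comparisons above, so differences seen in both are not independent. Of all probe sets 0.0122% passed the adjusted threshold in limma, and no channel gene did (smallest adjusted p 0.877). Of the 83 genes 43 were higher and 40 lower, with a median of 0.00, against -0.01 over all probe sets. At an unadjusted p under 0.05, 3 were higher (2.36% of all probe sets were) and 5 lower (2.76% were). Groups did not overlap for 13 genes (15.7%), against 8.63% of all probe sets. With the replicate block 20 genes had an unadjusted p under 0.05, where 13.9% of all probe sets did, and the smallest adjusted p among them was 0.232.

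Two-pore-domain channels were lower in 10 of 12 cases, where 8806 of all 16335 probe sets were lower. With an unadjusted p under 0.05, 2 of the 12 were lower, where 2.76% of all probe sets were. Kcnk4 was at 7.54, 7.42 and 7.53 on chronic arrays and 8.14, 8.73 and 8.09 on acute arrays, the largest difference among the 83 (-0.83 ± 0.20, 1.77-fold lower; unadjusted p = 0.00279, adjusted p = 0.877). Kcnk15, an acid-sensitive family member, was at 7.15, 7.10 and 6.92 on chronic arrays and 7.33, 7.31 and 7.21 on acute arrays (-0.23 ± 0.09). Among voltage-gated genes Kcna5, a delayed rectifier known from heart, vessel wall and glia, was at 6.79, 7.14 and 7.17 on chronic arrays and 6.14, 6.66 and 6.75 on acute arrays (0.52 ± 0.20). Kcng3 (0.36 ± 0.14) was higher, and Kcnc4 (-0.46 ± 0.16) and Kcna6 (-0.24 ± 0.10) were lower, without overlap. Kcnj2 was at 8.41, 8.44 and 8.99 on chronic arrays and 8.03, 8.13 and 8.25 on acute arrays (0.48 ± 0.20). Kcnn1 was lower (-0.21 ± 0.09), and Kcnj14, high in both treated groups, differed by -0.03 ± 0.12. All of these had an adjusted p of 0.877 or more.

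All 13 cortex markers were lower in the chronic group (2 with an unadjusted p under 0.05, median -0.76), as were 8 of 8 choroid plexus markers (0 at that threshold, median -0.31), and all 13 projection neuron markers were higher (1 at that threshold, median 0.22). With the cortex and thalamus covariates 3 channel genes had an unadjusted p under 0.05 (Kcnf1, Kcnh5 and Kcns1), where 2.06% of all probe sets did, and none of the 8 above. Kcnk4 was then -0.31, Kcnj2 0.14 and Kcna5 0.34. Without the 3 arrays high in cortex markers, 5 genes had one (Kcna1, Kcne2, Kcnf1, Kcnk4 and Kcns1), where 2.1% of all probe sets did. These rest on acute array 3 alone, assumed to vary like the other groups.

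**Figure D4:**
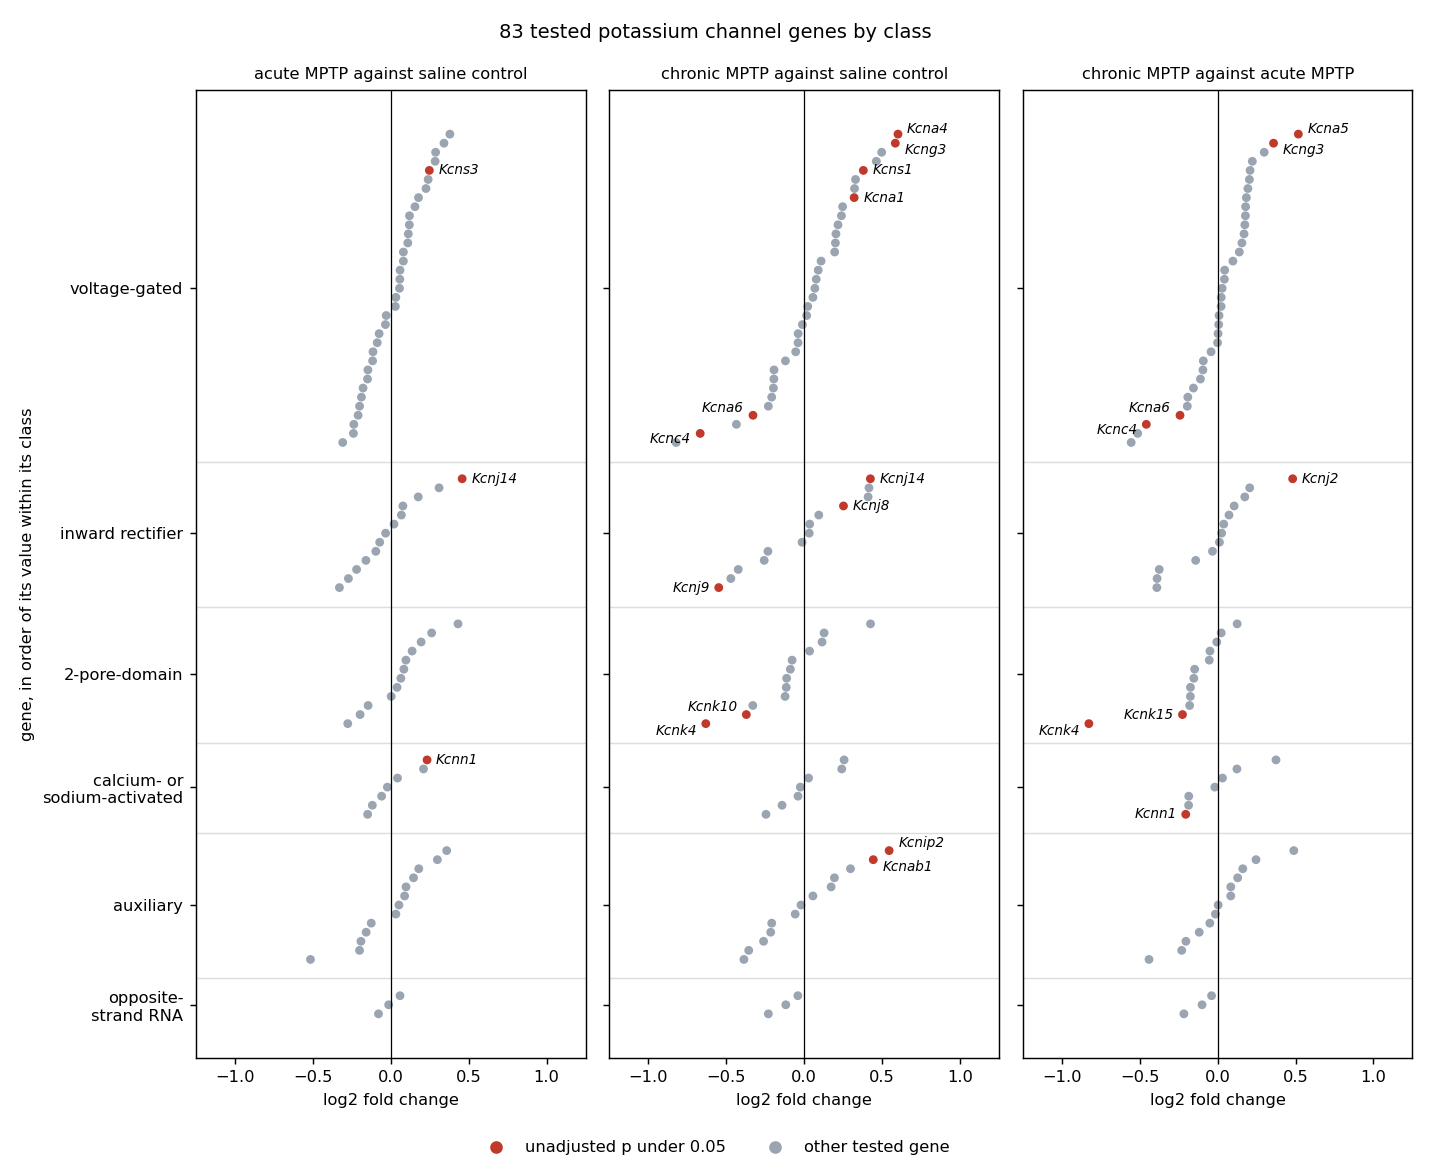
Each point is the log2 fold change of 1 of the 83 tested genes, ordered by value within its class, for the 3 comparisons. Red points, with names, have an unadjusted p under 0.05, which 3, 13 and 8 genes have in the panels from left to right. No point passes the adjusted threshold. The first and middle panels share their control arrays, the middle and last their chronic arrays, and the first and last their acute arrays.

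Genes that work with the channels were described from 2 further lists. Of 19 listed channel partners (transmembrane and anchoring proteins, sulfonylurea receptors and the cyclic nucleotide-gated pacemaker channels) 18 were tested, and of 11 genes of potassium transport (sodium pump subunits and chloride cotransporters) 7 were. None passed the adjusted threshold. Lgi1, a secreted protein that binds Adam22 and Adam23 and modulates axonal Kcna channels, was 0.34 ± 0.11 higher in the chronic than in the control group and 0.28 ± 0.11 higher than in the acute group, without overlap in either (unadjusted p = 0.0102 and 0.0264, adjusted p = 0.876 and 0.877, limma). It was the 1 partner of 18 with an unadjusted p under 0.05 in either comparison, a share near that of all probe sets (5.51% in chronic against control and 5.12% in chronic against acute). Adam22 (0.09 ± 0.16) and Adam23 (0.22 ± 0.13) overlapped, as did Dpp6 (0.07 ± 0.14) and Dpp10 (-0.41 ± 0.21), the transmembrane partners of the transient current channels. The chloride cotransporter Slc12a5 differed by -0.10 ± 0.11 and the sodium pump subunit Atp1b1 by -0.06 ± 0.11 in chronic against control, and 0 of the 7 transport genes had an unadjusted p under 0.05 in any comparison.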

How the data were processed

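Striatal RNA was isolated with the RNeasy kit and turned into biotinylated cDNA with the Ambion WT Expression kit for Affymetrix arrays, per the labels' protocols. The values deposited by the authors are log2 intensities of summarised probe sets, with array medians of 6.85 to 6.90. The sources used here do not give how the authors corrected background, normalized or summarised. Values were used as deposited, and the number of arrays limits the precision.

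Gene names came from the platform annotation. Of 28815 probe sets 21780 had 1 symbol, 1605 several and 5430 none. The 91 channel genes all matched RefSeq (GRCm38.p6), with 0 symbols changed. Tested were 16335 probe sets with 1 symbol and a mean at or above the 25th percentile (log2 5.89). Kcna2, Kcnh8 and Kcnma1 had 2 probe sets. At 4 decimals, 36 of the 91 genes had a value shared by 2 or more arrays (39.6%, against 38.8% of tested probe sets), and no 2 arrays shared more than 6.34% of values.

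limma 3.58.1 in R 4.3.3 fitted a mean per group over all 9 arrays, with eBayes and Benjamini-Hochberg adjustment over all tested probe sets (two-sided, threshold 0.05; 6 residual degrees of freedom before moderation). Slopes on marker means came from the same fit with both means added. Errors are standard errors. The code was tested on simulated data.

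Same-numbered arrays of different groups deviated together (r from 0.157 to 0.673 in 9 pairs, against -0.609 to 0.184 in 18 others, across probe sets), so the replicate number was used as a block beside each test. The pairing comes from the values, not the labels.

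Named were, per comparison and direction, up to 6 non-overlapping genes with the smallest p, the 10 with the largest SD, up to 5 per marker mean and sign by slope, a list of channels known from striatum, and partners with an unadjusted p under 0.05. Kcnj5, Kcnj12, Kcnj15, Adam22, Adam23, Dpp6, Dpp10, Slc12a5 and Atp1b1 fall outside this rule and were named after their values were seen. The members and all lists were chosen with earlier results of these data known, and families within classes after the values were seen.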

Additional observations from a re-analysis of the deposited data

How the results depend on the processing

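No channel gene passed the adjusted threshold in any comparison under any alternative run. The counts at an unadjusted p under 0.05 (3 for acute against control, 13 for chronic against control, 8 for chronic against acute) moved in some. The replicate block, which follows the pairing, gave 9, 25 and 20, and with the cortex and thalamus means added 10 and 8 in the first 2 comparisons. The cortex and thalamus means alone gave 1, 1 and 3, and cortex with choroid plexus means 14, 1 and 2. The share of all probe sets moved too, to 4.21%, 13% and 13.9% with the block and 1.11%, 1.29% and 2.06% with the cortex and thalamus means. Where a run's share over all probe sets is not given in this text, its count describes the run and is not a result about channel genes. Without the 3 arrays high in cortex markers the counts were 1, 7 and 5, and without the 2 arrays high in choroid plexus markers 8 for chronic against control. Testing only probe sets above the median gave 0 for acute against control and 4 for chronic against acute, where fewer genes are tested. Leaving out 1 array gave 1 to 12 for acute against control (lowest without control 3 and also without acute 1, highest without control 2), 8 to 24 for chronic against control (lowest without chronic 3, highest without control 2) and 2 to 11 for chronic against acute (lowest without acute 1 and also without chronic 3, highest without acute 3). The median of the channel genes in chronic against control was 0.0225 with the median filter, 0.0318 with the block and both marker means and 0.0466 with the marker means alone. In acute against control it was -0.034 without the 3 cortex-high arrays, and in chronic against acute -0.0505 with cortex and choroid plexus means. Leaving out 1 array gave medians of -0.0111 to 0.0651 in acute against control, -0.0116 to 0.0233 in chronic against control and -0.0199 to 0.0075 in chronic against acute. With the block and both marker means, which left fewer residual degrees of freedom, 3 cortex slopes passed in place of 0. Among genes with an unadjusted p under 0.05, signs reversed for Kcnab1 in chronic against control (-0.0201 with the block and both marker means) and, with cortex and choroid plexus means, for Kcna6 (0.0092) and Kcnj2 (-0.0398) in chronic against acute. The cause was not tested. The other normalizations, the probe set choice, the intensity trend, no filter and the fit of 2 groups alone kept all of these summaries within 1.5 times or within the spread.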
